A study of Homo sapiens with 20 samples.

Results

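SH3KBP1, OSBP2, ANK3, METTL7A, SLC44A5 and HEG1 are 6 of the 57500 genes counted in NTERT cells, a human keratinocyte line immortalized with the telomerase catalytic subunit. They were chosen by their read counts, because they changed strongly after high-density wounding (HDW, many crossed scratches through a confluent layer) in WT cells, where SH3KBP1 and OSBP2 rose and the other 4 fell. The comparison of WT unwounded with WT HDW therefore chose them and is given below as a description without a test. RNA was sequenced from unwounded and wounded cells of both genotypes, WT and GCN2KO, in 4 groups of 5 libraries, and RNA was taken 6 h after HDW. WT cells carried a control guide, and GCN2KO cells were an edited pool rather than 1 clone, made with Cas9 and guides against EIF2AK4, the gene for the eIF2 kinase GCN2. The labels give a low-calcium growth medium, and the HDW protocol of the study adds serum and calcium before wounding to start differentiation. The labels speak of replicates without saying that they were separate cultures, so the p-values measure the spread between these libraries. The question was how far these genes responded to HDW without GCN2, and whether they already stood at another level before it.

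SH3KBP1 encodes CIN85, an adaptor with SH3 domains that binds CBL ubiquitin ligases and takes part in the endocytosis of activated receptor tyrosine kinases such as the EGF receptor. OSBP2 encodes a sterol-binding relative of OSBP, and proteins of that family bind sterols and phosphoinositides where membranes meet. ANK3 encodes ankyrin-G, which ties membrane proteins, E-cadherin among them, to the spectrin skeleton under the lateral membrane of epithelial cells. METTL7A, now also named TMT1A, encodes a membrane-bound thiol methyltransferase found in the endoplasmic reticulum and on lipid droplets. SLC44A5 belongs to the choline transporter-like family. HEG1 encodes a transmembrane receptor that holds KRIT1 at the membrane and is best known from endothelial junctions.

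On GRCh38 (GENCODE annotation), SH3KBP1 (ENSG00000147010, chromosome X, 19533977 to 19887600, minus strand), ANK3 (ENSG00000151150, chromosome 10, 60026298 to 60733490, minus strand) and SLC44A5 (ENSG00000137968, chromosome 1, 75202129 to 75611114, minus strand) are long genes. Their spans of 354 kb, 707 kb and 409 kb lay at the 97.3rd, 99.4th and 98.0th percentile of the 13277 protein-coding genes tested, whose median span was 33.3 kb. OSBP2 (ENSG00000184792, chromosome 22, 30693782 to 30907824, plus strand) spans 214 kb and HEG1 (ENSG00000173706, chromosome 3, 124965710 to 125055997, minus strand) 90.3 kb. METTL7A (ENSG00000185432, chromosome 12, 50923472 to 50932510, plus strand) is the short one at 9.04 kb, and 18.9% of its exonic bases are shared with a gene on the same strand that has no symbol. Reads from that shared stretch cannot be assigned to either gene with certainty. In ANK3, 4.77% of exonic bases are shared with other annotated genes.

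The RefSeq (GRCh38.p14) set used gives 13 start sites for the 6 genes. GENCODE annotates 40 transcript starts for SH3KBP1, 14 for OSBP2 and 31 for ANK3, against 4, 2 and 4 windows searched. Other starts of these genes were not searched. The 250 bases before each RefSeq start were searched on both strands for short patterns. These were TGANTCA, a loose form of the AP-1 motif with its middle base free, the cAMP response element TGACGTCA and the CEBP-ATF core TGATGNAA. AP-1 factors are induced in wounded epidermis, and CEBP-ATF elements are bound by ATF4, whose translation GCN2 can raise. In this study, however, ATF4 protein was reported to rise after wounding both with and without GCN2. The TGANTCA letters were found in 2 of the 13 windows, against 6.59% of 34943 windows of the same length. The match was TGAGTCA in OSBP2, a rising gene, and TGAATCA in ANK3, a falling gene. The other motifs were in 0 of the 13 windows, against 1.63% of all windows for TGACGTCA and 3.15% for TGATGNAA. A match is a description of letters and not a bound site, and no match says only that these letters are not in this window. Since reads were counted per gene, which start was used in these cells is not known. Each matched window lies inside the GENCODE span of its gene. The windows with a match are printed because they show where it stands, at −216 in OSBP2 and −202 in ANK3 counted from the start, and the single windows of SLC44A5 and HEG1 are printed beside them as falling genes with 1 RefSeq start and no annotated exon in the window. METTL7A also has 1 RefSeq start, but its window lies wholly in annotated exons and is not printed. Capitals mark the TGANTCA match.
OSBP2, chr22:30764003-30764252, plus strand: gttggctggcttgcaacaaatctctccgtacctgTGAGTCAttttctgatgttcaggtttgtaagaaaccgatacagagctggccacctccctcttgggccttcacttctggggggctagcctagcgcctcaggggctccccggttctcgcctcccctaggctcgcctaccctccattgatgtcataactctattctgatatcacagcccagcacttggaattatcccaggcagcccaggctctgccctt
ANK3, chr10:60572957-60573206, minus strand: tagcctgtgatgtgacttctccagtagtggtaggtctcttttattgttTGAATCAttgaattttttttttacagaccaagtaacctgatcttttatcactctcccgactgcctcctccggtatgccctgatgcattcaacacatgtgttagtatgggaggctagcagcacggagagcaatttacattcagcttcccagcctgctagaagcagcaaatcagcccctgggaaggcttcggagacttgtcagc
SLC44A5, chr1:75611115-75611364, minus strand: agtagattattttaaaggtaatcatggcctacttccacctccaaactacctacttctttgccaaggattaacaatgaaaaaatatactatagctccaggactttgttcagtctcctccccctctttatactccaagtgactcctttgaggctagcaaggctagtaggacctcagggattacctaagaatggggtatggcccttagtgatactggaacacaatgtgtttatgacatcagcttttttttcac
HEG1, chr3:125055998-125056247, minus strand: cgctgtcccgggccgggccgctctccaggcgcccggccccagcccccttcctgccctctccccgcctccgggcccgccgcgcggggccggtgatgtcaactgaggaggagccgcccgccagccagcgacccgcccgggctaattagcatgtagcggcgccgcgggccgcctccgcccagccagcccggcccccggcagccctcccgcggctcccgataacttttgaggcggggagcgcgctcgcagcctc

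Totals per library ran from 14083504 to 34611570 counts, and every library correlated with the others of its group at a mean r of 0.990 to 0.995. EIF2AK4, the edited gene, was at 894 ± 61.8 (SD, n = 5) in unwounded GCN2KO libraries against 4355 ± 149 (SD, n = 5) in unwounded WT libraries. A normalized read count is a gene's count divided by the library's effective size relative to the mean of the 20 libraries. Keratinocyte markers summed to 14830.1 to 19403 CPM, reads scaled to the same library size, with KRT1 at 6 to 39 counts, while 5 endothelial genes summed to 0.380 to 1.31 CPM, 4 immune genes to 1.34 to 4.03 CPM and 4 melanocyte genes to 1.96 to 3.49 CPM, with TYR at 0. Of the fibroblast genes, which summed to 23.1 to 36.2 CPM, COL1A1 gave nearly all. The keratinocyte markers did not move together between the genotypes: in unwounded WT and GCN2KO libraries KRT14 averaged 2202 and 1222 CPM, COL17A1 2885 and 1124 CPM, KRT5 8132 and 11451 CPM, KRT10 43.9 and 51.1 CPM, and involucrin (IVL), an early differentiation product, 109 and 385 CPM. IVL was at 155 and 603 CPM after HDW. The part of these differences in the results below was not tested.

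In WT cells the 5 wounded libraries lay wholly above the 5 unwounded ones for both rising genes and wholly below them for the 4 falling genes. These groups chose the genes, and how many of all genes tested were parted in this way was not counted. SH3KBP1 read 759, 778, 759.6, 715 and 751 normalized counts in the unwounded libraries (replicates 1 to 5 in order, here and below) and 2610.0, 2344, 2513, 2812 and 2557 after HDW, a 3.41-fold difference. OSBP2 read 103, 119.6, 88.2, 92.0 and 85.8 before and 491, 479, 477, 524 and 483 after HDW, 5.12-fold higher. The OSBP2 level before wounding was the lowest of any member and rested on 52 to 99 reads per library. METTL7A, with the largest fall of the 6 genes, went from 2778, 2611, 3012, 2634 and 2859.8 to 704, 596, 636, 599 and 669, which was 4.34-fold lower.

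ANK3 read 1902, 1957, 1973, 2059.8 and 2016 in unwounded WT libraries and 686, 738, 663, 683 and 664 after HDW. SLC44A5 read 2488, 2587, 2693, 2559 and 2607 against 1227, 1192, 1094, 1089 and 1155. HEG1 read 3963, 3572, 4131, 3762 and 3812 against 1753, 1786, 1781, 1686 and 1739. The ratios were 2.89-fold for ANK3, 2.25-fold for SLC44A5 and 2.20-fold for HEG1, all downward, with the wounded libraries tightly grouped (HEG1 1749 ± 40.3, SD, n = 5). In bulk RNA, fewer cells expressing a gene and less RNA per cell cannot be told apart.

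On the log2 scale the WT response was 1.77 (SE 0.047, 95% interval 1.67 to 1.87) for SH3KBP1 and 2.36 (SE 0.080, 95% interval 2.19 to 2.53) for OSBP2. For the falling genes it was −2.12 (SE 0.052, 95% interval −2.23 to −2.01) for METTL7A and −1.53 (SE 0.038, 95% interval −1.61 to −1.45) for ANK3. It was −1.17 (SE 0.038, 95% interval −1.25 to −1.09) for SLC44A5 and −1.14 (SE 0.039, 95% interval −1.22 to −1.06) for HEG1. The study called a gene DE at an adjusted p of at most 0.05 and an absolute log2 fold change of at least 1. All 6 estimates were beyond that fold change, and no p is given because this comparison chose the genes. Of the 15348 genes tested in that comparison, 2.62% were DE upward and 1.55% downward, from which nothing can be read about genes chosen there. By size of change SH3KBP1 was at place 102 and OSBP2 at place 45 of the 7624 genes with a higher estimate, and METTL7A at place 7, ANK3 49, SLC44A5 135 and HEG1 155 of the 7724 with a lower one. The smallest changes of the 6 were those of HEG1 at −1.14 and SLC44A5 at −1.17.

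**Figure D1:**
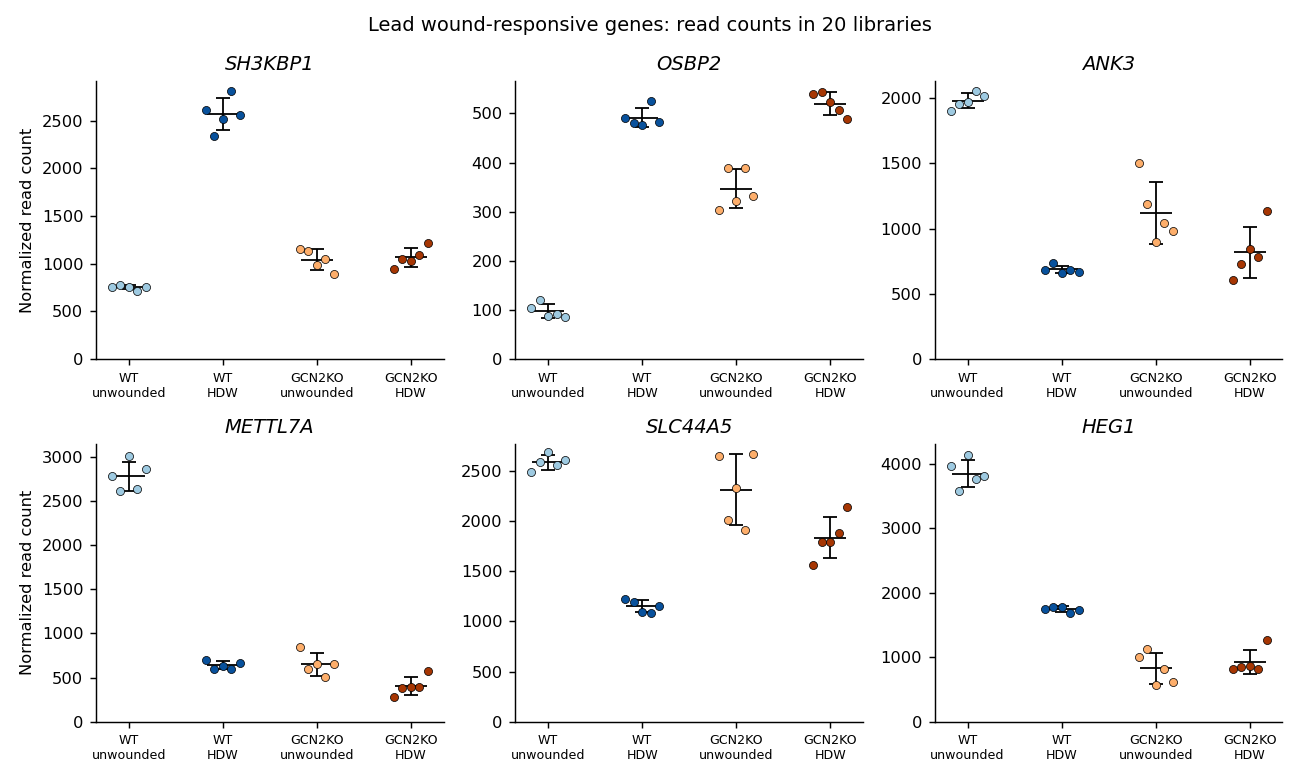
Normalized read counts of the 6 genes (y axis, linear, from 0) in the 4 groups (x axis); points are libraries, the long bar the mean and the whiskers 1 SD (n = 5). WT unwounded and WT HDW points are apart in every panel, while in GCN2KO libraries only OSBP2 has its unwounded and HDW points apart. The WT groups chose the genes, and how often groups were apart over all genes tested was not counted in either genotype.

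In GCN2KO cells the estimated response to HDW was nearer to 0 than in WT cells for all 6 genes, whose WT response had chosen them. OSBP2 rose 1.51-fold in GCN2KO cells, METTL7A fell 1.60-fold and SLC44A5 fell 1.25-fold. SH3KBP1, ANK3 and HEG1 did not pass the test. These GCN2KO libraries took no part in choosing the genes. By edgeR's adjusted p, 3 of the 6 genes passed, 1 higher and 2 lower, where 22.7% of the 15791 genes tested passed in either direction. The count of DE genes was 0 of 6 with edgeR and 0 with DESeq2, against a background of 0.671%, and 4 of the 6 had an unadjusted p of at most 0.05.

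SH3KBP1, the CIN85 gene, read 1158, 1137, 988, 1047 and 889 in unwounded GCN2KO libraries and 948, 1052, 1029, 1088 and 1220.1 after HDW. The groups lay on top of each other, at 1044 ± 111 (SD, n = 5) and 1068 ± 99.5 (SD, n = 5). The log2 fold change (log2FC) was 0.044 (SE 0.088, edgeR adjusted p = 0.747), with a 95% interval of −0.14 to 0.23. The WT response chose the gene, so it was not tested against this interval. In order of level, WT HDW stood above both GCN2KO groups, which overlapped each other, and WT unwounded was the lowest without overlap.

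OSBP2, the sterol-binding gene, read 304, 389, 321, 388 and 331 in unwounded GCN2KO libraries and 539, 543, 523, 507 and 488 after HDW. Every wounded library was above every unwounded one. The log2 fold change was 0.60 (SE 0.085, edgeR adjusted p = 6.20e-04), and the two-sided exact permutation test of 5 against 5 libraries gave p = 0.00794, the smallest it can give. It kept its call with each library left out in turn (0.56 to 0.65). GCN2KO HDW and WT HDW libraries overlapped at the top, GCN2KO unwounded libraries came next, and WT unwounded libraries were the lowest.

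METTL7A, the thiol methyltransferase gene, read 850.4, 592, 657, 501 and 651 in unwounded GCN2KO libraries and 278, 381, 397, 391 and 573 after HDW. The highest wounded library, replicate 5, reached into the unwounded range. The log2 fold change was −0.68 (SE 0.17, edgeR adjusted p = 0.0127), and it passed in all 10 fits with 1 library left out (−0.84 to −0.56). WT unwounded stood far above the other groups, GCN2KO unwounded and WT HDW came next and overlapped, and GCN2KO HDW was the lowest without overlap.

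SLC44A5, the choline transporter-like gene, read 2649, 2017, 2327, 1911 and 2674 in unwounded GCN2KO libraries and 1567, 1789, 1797, 1884 and 2143 after HDW. The ranges overlapped, and the unwounded libraries alone spread from 1911 to 2674. Its log2 fold change was −0.32 (SE 0.10, edgeR adjusted p = 0.0383), a call close to the threshold that held in 3 of 10 fits with 1 library left out (adjusted p 0.0152 to 0.1003). WT HDW was the lowest group without overlap, while WT unwounded, GCN2KO unwounded and GCN2KO HDW overlapped as neighbours.

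ANK3, the ankyrin-G gene, read 1504, 1188, 896, 1046 and 982 in unwounded GCN2KO libraries and 606, 729, 843, 779 and 1136 after HDW. Replicate 1 was the high unwounded library and replicate 5 the high wounded one, and the groups overlapped. The ANK3 log2FC of −0.44 (SE 0.16, edgeR adjusted p = 0.0603) missed the threshold, with a 95% interval of −0.79 to −0.10. Without GCN2KO HDW replicate 5 it was −0.59 (SE 0.14, edgeR adjusted p = 0.0101), and without GCN2KO unwounded replicate 3 it was −0.52 (SE 0.16, edgeR adjusted p = 0.0422). DESeq2 in place of edgeR, no filter on low counts, and all 20 libraries in 1 fit also put it past the threshold. WT unwounded was the highest group without overlap, and below it GCN2KO unwounded, GCN2KO HDW and WT HDW overlapped as neighbours.

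HEG1, the KRIT1-binding receptor gene, read 1007, 1131, 566, 811 and 622 in unwounded GCN2KO libraries and 822, 854, 863, 824 and 1265 after HDW. The unwounded range enclosed 4 of the 5 wounded libraries, and wounded replicate 5 lay above it. The log2 fold change was 0.18 (SE 0.18, edgeR adjusted p = 0.482) with a 95% interval of −0.20 to 0.57. Here too the WT response chose the gene and was not tested against the interval. The estimate moved with single libraries, to 0.041 without GCN2KO HDW replicate 5 and 0.31 without GCN2KO unwounded replicate 2, and passed in none of the 10 such fits. In order of level, WT unwounded stood above WT HDW and WT HDW above both GCN2KO groups, which overlapped.

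**Figure D2:**
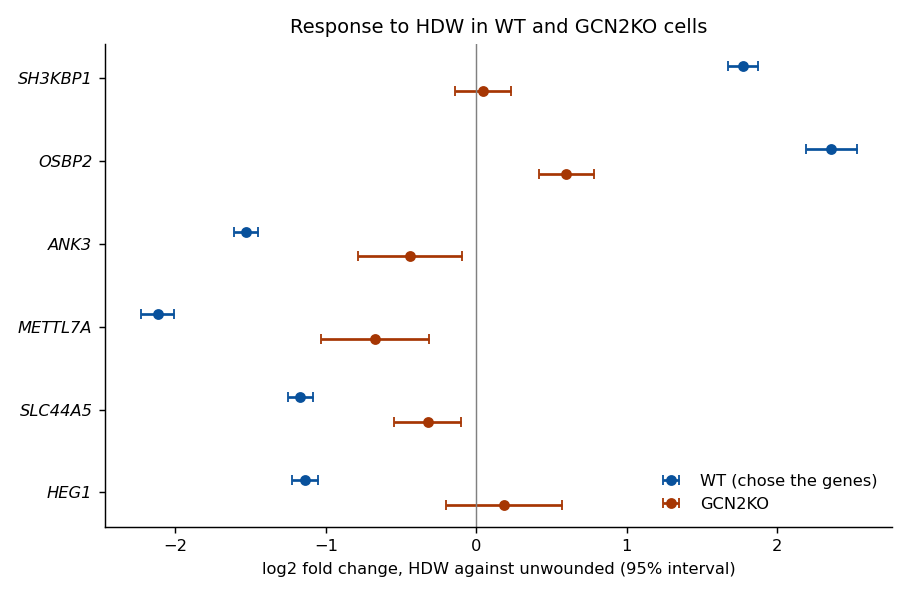
Log2 fold change of HDW against unwounded (x axis) for the 6 genes (y axis) in WT and GCN2KO cells; points are edgeR estimates from 5 against 5 libraries and bars their 95% intervals. The GCN2KO points lie nearer to 0 than the WT points in every row, from −0.68 for METTL7A to 0.60 for OSBP2, and the WT points are those that chose the genes.

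The plot of responses shows both estimates for each gene, and the interaction of genotype and HDW gives their difference on the log2 scale. It was −1.74 (SE 0.10, 95% interval −1.95 to −1.53) for SH3KBP1 and −1.76 (SE 0.12, 95% interval −2.01 to −1.52) for OSBP2, and positive for the falling genes. For METTL7A it was 1.43 (SE 0.18, 95% interval 1.05 to 1.81) and for HEG1 1.31 (SE 0.19, 95% interval 0.92 to 1.71). For ANK3 it was 1.08 (SE 0.18, 95% interval 0.72 to 1.44) and for SLC44A5 0.83 (SE 0.12, 95% interval 0.59 to 1.07). No test of these differences is given, since the larger WT response is what selected the genes.

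Before any wound, GCN2KO cells already differed from WT cells in 5 of the 6 genes. HEG1 was 4.67-fold lower, METTL7A 4.27-fold lower and OSBP2 3.61-fold higher in GCN2KO cells, and these 3 were DE genes. ANK3 was 1.76-fold lower and SH3KBP1 1.39-fold higher. The differences were widespread in this comparison, where 66.5% of 15348 genes passed the adjusted p and 16.4% were DE, 8.21% higher and 8.22% lower. The WT unwounded libraries used here also took part in choosing the genes.

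OSBP2 averaged 97.8 ± 13.9 (SD, n = 5) in WT and 347 ± 39.8 (SD, n = 5) in GCN2KO unwounded libraries, a log2 difference of 1.85 (SE 0.11, edgeR adjusted p = 9.67e-10). METTL7A averaged 2779 ± 166 (SD, n = 5) and 650.2 ± 128 (SD, n = 5), a log2 difference of −2.09 (SE 0.11, edgeR adjusted p = 1.54e-10). HEG1 averaged 3848 ± 211 (SD, n = 5) and 828 ± 243 (SD, n = 5), a log2 difference of −2.22 (SE 0.15, edgeR adjusted p = 2.82e-09). In none of the 3 genes did a GCN2KO library reach the WT range. How many of all genes tested were parted in this way was not counted.

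For ANK3 the log2 difference was −0.82 (SE 0.11, edgeR adjusted p = 6.08e-06) and for SH3KBP1 0.48 (SE 0.077, edgeR adjusted p = 4.45e-05), again with no library of one genotype in the range of the other. SLC44A5 was the member that did not pass, at −0.16 (SE 0.088, edgeR adjusted p = 0.129) with a 95% interval of −0.34 to 0.030. Its GCN2KO libraries at 2649 and 2674 lay in or near the WT range of 2488 to 2693, and the other 3 below it. Without GCN2KO unwounded replicate 1 the difference was −0.21 (SE 0.086, edgeR adjusted p = 0.0421), and leaving out replicate 5 of that group gave −0.21 (SE 0.085, edgeR adjusted p = 0.0431).

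After HDW the genotypes differed in 4 of the 6 genes, and SH3KBP1 alone was a DE gene. SH3KBP1 averaged 2567 ± 169 (SD, n = 5) in WT and 1068 ± 99.5 (SD, n = 5) in GCN2KO wounded libraries, 2.41-fold lower in the latter, a log2 difference of −1.27 (SE 0.064, edgeR adjusted p = 1.33e-09). For HEG1 the log2 difference was −0.92 (SE 0.099, edgeR adjusted p = 1.47e-06) and for METTL7A −0.67 (SE 0.14, edgeR adjusted p = 5.19e-04), both again lower in GCN2KO cells. SLC44A5 was higher in GCN2KO cells, at 0.67 (SE 0.070, edgeR adjusted p = 9.31e-07). In each of these 4 genes the groups did not overlap, and how often that held over all genes tested was not counted. Over all 15855 genes tested, 71.7% passed the adjusted p and 14.9% were DE, 7.83% in the lower direction, and the WT HDW libraries took part in choosing the genes.

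OSBP2 and ANK3 did not pass after HDW. OSBP2 stood at 491 ± 19.4 (SD, n = 5) in WT and 520.0 ± 22.7 (SD, n = 5) in GCN2KO, a log2 difference of 0.086 (SE 0.051, edgeR adjusted p = 0.143) with a 95% interval of −0.023 to 0.19. ANK3 stood at 687 ± 30.3 (SD, n = 5) and 819 ± 197 (SD, n = 5), a log2 difference of 0.25 (SE 0.12, edgeR adjusted p = 0.0824) with a 95% interval of −0.014 to 0.52. Both sets of libraries overlapped. The ANK3 call changed with 1 library: without GCN2KO HDW replicate 1, the lowest, the difference was 0.35 (SE 0.10, edgeR adjusted p = 0.00922). Without GCN2KO HDW replicate 5 it was 0.10 (SE 0.076, edgeR adjusted p = 0.24). HEG1 would also count as DE without GCN2KO HDW replicate 5, at −1.05 (SE 0.036, edgeR adjusted p = 9.49e-12).

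**Figure D3:**
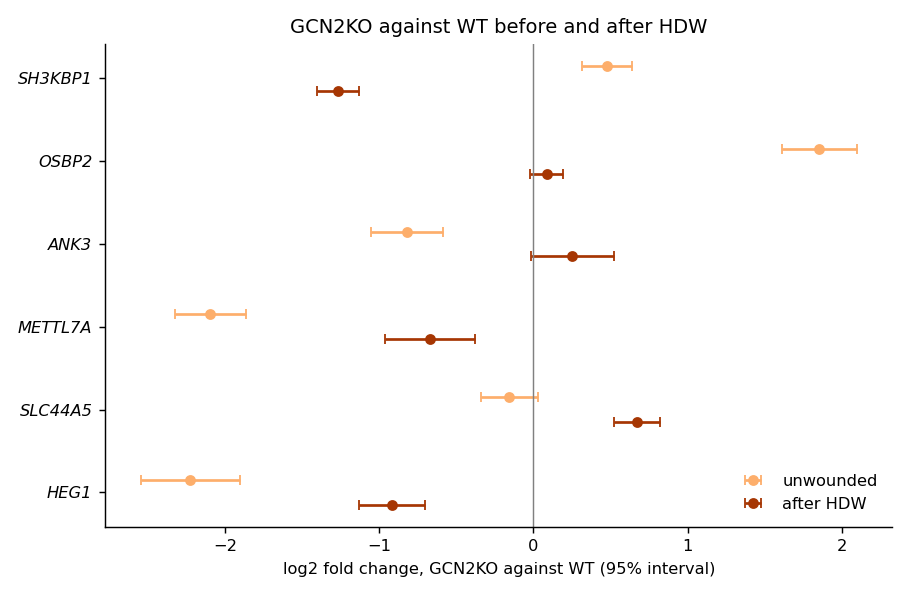
Log2 fold change of GCN2KO against WT (x axis) for the 6 genes (y axis) in unwounded cells and after HDW; points are edgeR estimates from 5 against 5 libraries and bars their 95% intervals. SH3KBP1 lies to the right of 0 in unwounded cells and to the left after HDW, and OSBP2 moves from 1.85 to 0.086.

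The plot of genotype differences shows the genes in 3 arrangements. OSBP2 and ANK3 differed between genotypes in unwounded cells, and after HDW their intervals included 0. METTL7A and HEG1 were lower in GCN2KO cells in both states, at −2.09 and −2.22 unwounded and −0.67 and −0.92 after HDW. SH3KBP1 and SLC44A5 showed their larger genotype difference after HDW, at −1.27 and 0.67. The unwounded and wounded differences share no library, but both use WT libraries that chose the genes.

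CPM per kb of exon sets different genes side by side, with all annotated exons of a gene together as its length. That length is 16293 bases for SH3KBP1 and 25830 for ANK3 against 4076 for METTL7A, so the order depends on the annotation. On this scale METTL7A was the highest of the 6 in unwounded WT cells at 23.7 ± 1.42 (SD, n = 5). SLC44A5 (14.3 ± 0.412) and HEG1 (13.4 ± 0.737) followed, ahead of ANK3 (2.67 ± 0.0806), SH3KBP1 (1.61 ± 0.0492) and OSBP2 (0.513 ± 0.0730). After HDW in WT cells METTL7A (5.47 ± 0.396), SH3KBP1 (5.48 ± 0.361), HEG1 (6.11 ± 0.141) and SLC44A5 (6.36 ± 0.333) stood close together. In GCN2KO HDW libraries SLC44A5 was the highest at 10.1 ± 1.15, and the other 5 genes averaged from 1.10 to 3.45.

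For the 4 falling genes the coefficient of variation was 2.30% to 7.23% in the WT groups and 11.3% to 29.3% in the GCN2KO groups. For OSBP2 it was 14.2% and 11.5% in unwounded WT and GCN2KO libraries and 3.96% and 4.37% in wounded ones, and for SH3KBP1 3.06% and 10.6%, and 6.58% and 9.32%. Single libraries stood apart in several genes at once. GCN2KO HDW replicate 5 was above the mean of the other 4 libraries of its group by 0.67 log2 units in METTL7A, 0.63 in ANK3, 0.59 in HEG1, 0.29 in SLC44A5 and 0.25 in SH3KBP1, and stood at −0.11 in OSBP2. GCN2KO unwounded replicate 1 was above the others by 0.56 in ANK3, 0.51 in METTL7A and 0.42 in HEG1. With both libraries left out, a choice made after seeing the data, the GCN2KO response of ANK3 was −0.47 (SE 0.11, edgeR adjusted p = 0.0165).

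**Figure D4:**
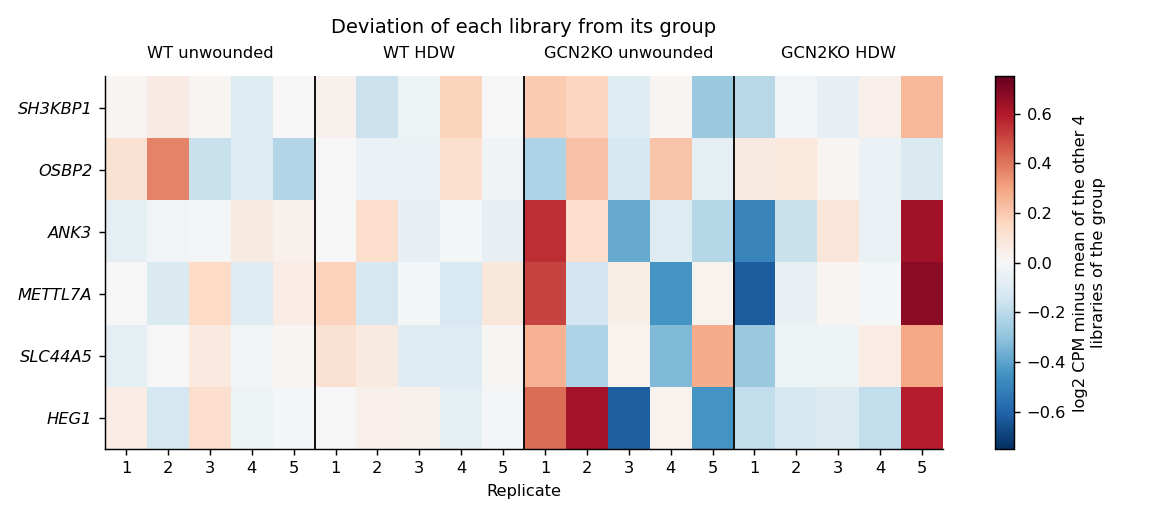
Deviation of each library from the mean of the other 4 libraries of its group (colour, log2 CPM) for the 6 genes (rows) and the 5 replicates of each group (columns). Most WT cells of the map are pale, the strongest colours are in GCN2KO columns, and GCN2KO HDW replicate 5 is high in 5 of the 6 genes, up to 0.67 in METTL7A. The WT libraries chose the genes.

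The genes whose levels followed a member most closely over the 20 libraries are given as a description, by Pearson's r of log2 CPM among 16535 other genes. The libraries come in groups and differ in depth, and whether they were separate cultures is not stated. HEG1 was followed by MAP3K5 (0.991), KLF13 (0.989) and NCOA2 (0.989), and METTL7A by CD36 (0.983), BAG1 (0.981) and UGT1A6 (0.979). OSBP2 was followed by the wound-activated keratin KRT6B (0.988), PAQR5 (0.976) and LINC00707 (0.974), and SH3KBP1 by the metalloproteinase gene ADAM8 (0.957) and TAGLN (0.956). For ANK3 the nearest were RDH10 (0.965), IFI16 (0.964) and ALDH3A2 (0.963), and for SLC44A5 CAMK2G (0.978), ARL15 (0.966) and NREP (0.952). Among the members themselves r ran from −0.962 (OSBP2 and METTL7A) to 0.879 (ANK3 and METTL7A), and it was 0.140 for SLC44A5 and HEG1, both falling genes. With group means removed, r was −0.37 for ADAM8 and 0.20 for TAGLN with SH3KBP1, 0.13 for PAQR5 with OSBP2, and 0.49 to 0.94 for the other genes named. Among member pairs it was then −0.56 for OSBP2 and METTL7A, 0.75 for ANK3 and METTL7A, and 0.048 for SLC44A5 and HEG1. For SH3KBP1 and ANK3 the sign changed, from −0.72 over the 20 libraries to 0.70. The members were chosen by their WT change, so r over the 20 libraries is not independent of that choice.

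Partner and family genes of the 6 members were taken from 6 lists holding 85 genes. After HDW, 25 rose and 21 fell of 66 tested in WT cells, and 10 rose and 6 fell of 68 in GCN2KO cells. The background shares passing the adjusted p were 26.1% upward and 25.2% downward in WT, and 11.9% and 10.8% in GCN2KO. Between the genotypes, 36 genes were higher and 19 lower in GCN2KO of 67 tested when unwounded (background 33.4% and 33.1%), and 35 and 20 of 68 after HDW (background 35.9% and 35.8%). The median log2 fold change over all genes tested was between −0.002 and 0.004 in these 4 comparisons. The plot of list counts sets the 6 lists side by side.

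**Figure D5:**
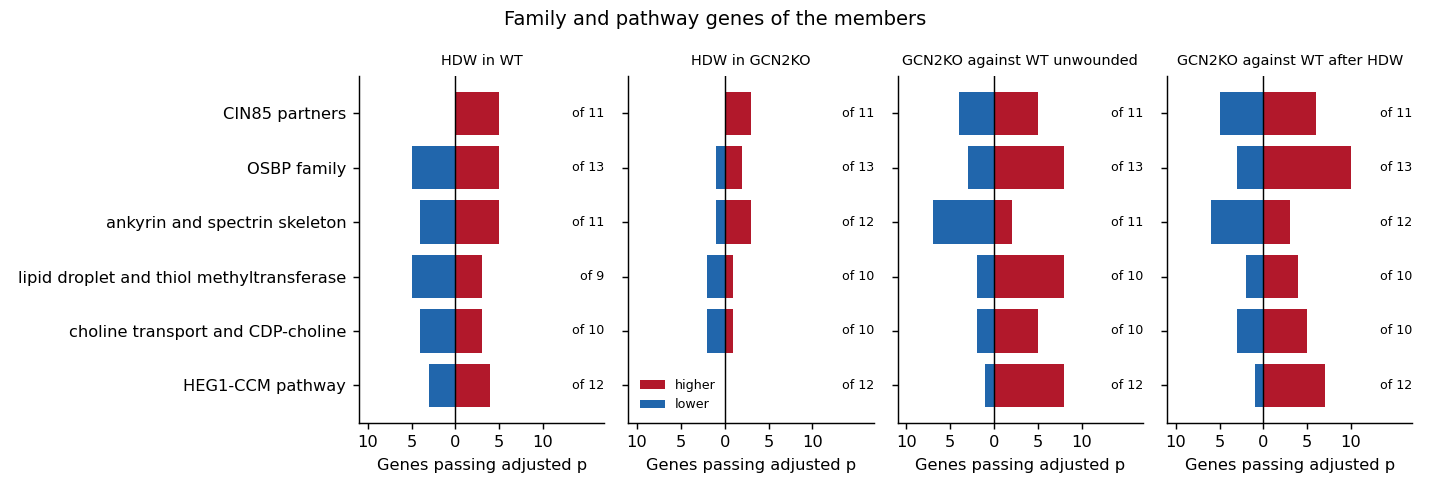
Number of list genes passing an edgeR adjusted p of 0.05 (x axis; higher to the right, lower to the left) for the 6 family and pathway lists (y axis) in 4 comparisons of 5 against 5 libraries; the number tested stands at the right edge. Over the lists, 16 of 68 genes pass for HDW in GCN2KO cells and 46 of 66 for HDW in WT cells.

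Among 14 CIN85 partners, which act in CBL-driven receptor endocytosis, 5 rose and 0 fell of 11 tested after HDW in WT cells and 3 rose and 0 fell of 11 in GCN2KO cells. In GCN2KO against WT, 5 were higher and 4 lower of 11 when unwounded and 6 were higher and 5 lower of 11 after HDW. The list medians over these comparisons, in that order, were 0.11, 0.19, 0.13 and 0.12 on the log2 scale. The counts of 0 lower genes after HDW were also 0 with DESeq2 and at an unadjusted p of at most 0.05, in both genotypes. UBASH3B, which encodes a phosphatase that binds CBL, rose after HDW in WT cells (log2FC 1.34, SE 0.078, edgeR adjusted p = 2.87e-09) and in GCN2KO cells (log2FC 0.59, SE 0.075, edgeR adjusted p = 3.52e-04). SPRY2, a feedback inhibitor of receptor tyrosine kinase signalling, rose in WT cells (log2FC 0.98, SE 0.077, edgeR adjusted p = 7.05e-08) and was lower in wounded GCN2KO than wounded WT cells (log2FC −1.05, SE 0.074, edgeR adjusted p = 2.34e-08). CBLC, a CBL family ligase, was lower in GCN2KO cells when unwounded (log2FC −1.19, SE 0.077, edgeR adjusted p = 1.76e-09) and after HDW (log2FC −1.23, SE 0.059, edgeR adjusted p = 8.52e-10). ASAP1, an ARF GTPase activator, rose in GCN2KO cells after HDW (log2FC 0.66, SE 0.095, edgeR adjusted p = 7.31e-04), having been lower there before (log2FC −0.66, SE 0.093, edgeR adjusted p = 1.03e-05). The adaptor gene GRB2 (log2FC 0.46, SE 0.074, edgeR adjusted p = 4.75e-05) and EGFR (log2FC 0.38, SE 0.13, edgeR adjusted p = 0.0182) were higher in unwounded GCN2KO cells.

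In the OSBP family and its VAP anchors, 5 rose and 5 fell of 13 tested after HDW in WT cells and 2 rose and 1 fell of 13 in GCN2KO cells. In GCN2KO against WT, 8 were higher and 3 lower of 13 when unwounded and 10 were higher and 3 lower of 13 after HDW. The list medians over these comparisons, in that order, were −0.007, 0.049, 0.24 and 0.28. OSBPL6 stood at 167 and 435 normalized counts in unwounded and wounded WT libraries and at 546 and 570.0 in the GCN2KO ones. It rose after HDW in WT cells (log2FC 1.38, SE 0.10, edgeR adjusted p = 4.42e-08), it did not pass in GCN2KO cells (log2FC 0.073, SE 0.072, edgeR adjusted p = 0.484), and unwounded GCN2KO cells were above WT (log2FC 1.71, SE 0.12, edgeR adjusted p = 4.10e-09). For OSBPL6 the difference between the WT and GCN2KO responses passed too (log2FC −1.32, SE 0.13, edgeR adjusted p = 1.11e-07), in a comparison where 3.31% of 16536 genes were DE. OSBPL10 rose in WT cells (log2FC 0.44, SE 0.034, edgeR adjusted p = 5.38e-08) and OSBPL8 (log2FC −0.42, SE 0.032, edgeR adjusted p = 5.21e-08) and OSBPL7 (log2FC −0.35, SE 0.085, edgeR adjusted p = 0.00266) fell there. In GCN2KO cells OSBPL3 (log2FC 0.38, SE 0.081, edgeR adjusted p = 0.00626) and OSBPL1A (log2FC 0.19, SE 0.058, edgeR adjusted p = 0.0333) rose after HDW, and VAPA, an endoplasmic reticulum anchor of the family, fell (log2FC −0.24, SE 0.069, edgeR adjusted p = 0.0246). OSBP itself was higher in unwounded GCN2KO than WT cells (log2FC 0.68, SE 0.081, edgeR adjusted p = 1.83e-06), while OSBPL7 (log2FC −1.79, SE 0.16, edgeR adjusted p = 4.86e-08) and OSBPL5 (log2FC −0.9987, SE 0.082, edgeR adjusted p = 2.54e-08) were lower.

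Of the ankyrin and spectrin skeleton genes, 5 rose and 4 fell of 11 tested after HDW in WT cells and 3 rose and 1 fell of 12 in GCN2KO cells. In GCN2KO against WT, 2 were higher and 7 lower of 11 when unwounded and 3 were higher and 6 lower of 12 after HDW. The list medians over these comparisons, in that order, were 0.040, 0.22, −0.47 and −0.14. EPB41L1, a protein 4.1 gene, fell after HDW in WT cells (log2FC −1.07, SE 0.051, edgeR adjusted p = 4.37e-10) and was lower in unwounded GCN2KO cells (log2FC −1.4957, SE 0.11, edgeR adjusted p = 6.75e-09). ADD3, an adducin gene whose product caps actin at spectrin junctions, fell in WT cells (log2FC −0.62, SE 0.042, edgeR adjusted p = 1.40e-08) and in GCN2KO cells (log2FC −0.49, SE 0.14, edgeR adjusted p = 0.0206), and was lower in unwounded GCN2KO cells (log2FC −1.37, SE 0.099, edgeR adjusted p = 5.84e-09). The spectrin gene SPTAN1 (log2FC 0.49, SE 0.14, edgeR adjusted p = 0.0225) rose in GCN2KO cells after HDW. Genes with few counts also passed, among them SPTBN5, which rose in WT cells (log2FC 1.56, SE 0.32, edgeR adjusted p = 8.24e-04) from a mean of 6.32 normalized counts.

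Among lipid droplet and thiol methyltransferase genes, 3 rose and 5 fell of 9 tested after HDW in WT cells and 1 rose and 2 fell of 10 in GCN2KO cells. In GCN2KO against WT, 8 were higher and 2 lower of 10 when unwounded and 4 were higher and 2 lower of 10 after HDW. The list medians over these comparisons, in that order, were −0.29, −0.26, 0.54 and 0.26. PLIN4, a lipid droplet coat gene, averaged 290.3 and 129.7 normalized counts in unwounded and wounded WT libraries and 114 and 89.8 in the GCN2KO ones. It fell in WT cells (log2FC −1.16, SE 0.12, edgeR adjusted p = 1.69e-06) and was lower in unwounded GCN2KO cells (log2FC −1.35, SE 0.11, edgeR adjusted p = 1.68e-08). HSD17B11, a droplet-associated dehydrogenase gene, fell after HDW in WT (log2FC −0.54, SE 0.11, edgeR adjusted p = 7.55e-04) and in GCN2KO cells (log2FC −0.48, SE 0.15, edgeR adjusted p = 0.0363), and was lower in unwounded GCN2KO cells (log2FC −1.07, SE 0.12, edgeR adjusted p = 7.49e-07). G0S2, an inhibitor of triglyceride lipase, rose in WT cells (log2FC 2.73, SE 0.31, edgeR adjusted p = 3.37e-06) and in GCN2KO cells (log2FC 1.58, SE 0.26, edgeR adjusted p = 0.00167), on means of 9.41 to 66.0 normalized counts. TPMT, a thiol methyltransferase of the cytosol, rose in WT cells (log2FC 0.25, SE 0.051, edgeR adjusted p = 7.37e-04), and ABHD5, a lipase activator, fell in GCN2KO cells (log2FC −0.31, SE 0.067, edgeR adjusted p = 0.00673). PLIN3 was higher in wounded GCN2KO than wounded WT cells (log2FC 0.94, SE 0.052, edgeR adjusted p = 2.59e-09).

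Of the choline transport and CDP-choline genes, 3 rose and 4 fell of 10 tested after HDW in WT cells and 1 rose and 2 fell of 10 in GCN2KO cells. In GCN2KO against WT, 5 were higher and 2 lower of 10 when unwounded and 5 were higher and 3 lower of 10 after HDW. The list medians over these comparisons, in that order, were 0.043, −0.093, 0.20 and 0.20. Within the SLC44 family, SLC44A4 (log2FC 2.4999, SE 0.17, edgeR adjusted p = 2.16e-09) and SLC44A2 (log2FC 0.83, SE 0.078, edgeR adjusted p = 1.07e-07) were higher in unwounded GCN2KO cells. SLC44A3 (log2FC −0.83, SE 0.11, edgeR adjusted p = 4.45e-06) and SLC44A1 (log2FC −0.53, SE 0.069, edgeR adjusted p = 5.20e-06) were lower there. CHKA, a choline kinase gene, fell after HDW in WT cells (log2FC −0.62, SE 0.085, edgeR adjusted p = 2.21e-05), and PEMT, which makes phosphatidylcholine from phosphatidylethanolamine, rose (log2FC 0.45, SE 0.077, edgeR adjusted p = 1.71e-04). In GCN2KO cells SLC44A1 fell after HDW (log2FC −0.28, SE 0.081, edgeR adjusted p = 0.0256), CEPT1 fell (log2FC −0.26, SE 0.082, edgeR adjusted p = 0.0383), and CHKB rose (log2FC 0.43, SE 0.12, edgeR adjusted p = 0.0186).

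In the HEG1 and cerebral cavernous malformation (CCM) pathway, 4 rose and 3 fell of 12 tested after HDW in WT cells and 0 rose and 0 fell of 12 in GCN2KO cells. In GCN2KO against WT, 8 were higher and 1 lower of 12 when unwounded and 7 were higher and 1 lower of 12 after HDW. The list medians over these comparisons, in that order, were 0.039, −0.001, 0.28 and 0.20. The count in wounded GCN2KO cells, 0 of 12 with edgeR, was 1, lower, at an unadjusted p of at most 0.05, and DESeq2 called 1, also lower. KLF4, a transcription factor gene that CCM signalling restrains in endothelium, rose after HDW in WT cells (log2FC 0.70, SE 0.071, edgeR adjusted p = 8.53e-07) and was higher in unwounded GCN2KO cells (log2FC 0.87, SE 0.081, edgeR adjusted p = 1.00e-07). ITGB1BP1, whose product binds KRIT1, rose in WT cells (log2FC 0.37, SE 0.057, edgeR adjusted p = 7.20e-05), and the CCM genes PDCD10 (log2FC −0.11, SE 0.038, edgeR adjusted p = 0.0215) and KRIT1 (log2FC −0.10, SE 0.038, edgeR adjusted p = 0.0376) fell. RASIP1 was higher in unwounded GCN2KO cells (log2FC 0.85, SE 0.27, edgeR adjusted p = 0.0103) on a mean of 22.3 normalized counts, and STK25, a kinase bound by PDCD10, was lower (log2FC −0.52, SE 0.063, edgeR adjusted p = 1.98e-06). RAP1B, a small GTPase upstream of KRIT1, was higher in wounded GCN2KO than wounded WT cells (log2FC 0.65, SE 0.070, edgeR adjusted p = 1.24e-06).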

How the data were processed

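RNA-seq counts from 20 NTERT libraries, 4 groups of 5, were analysed. Per the study's methods, the authors trimmed reads with Trimmomatic, aligned them to GRCh38 with STAR and counted them per gene with featureCounts, and the deposited counts are whole and not normalized. Whether counting used strand is not given in the sources used here. Symbols came from GENCODE, which matched 56410 of 57500 gene IDs.

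Each comparison was fitted over all genes with edgeR 4.0.16 (R 4.3.3), using its quasi-likelihood test, TMM normalization, a filter on low counts (minimum count 10, minimum total 15) and Benjamini-Hochberg adjustment. DE means an adjusted p of at most 0.05 and an absolute log2 fold change of at least 1. The 2 responses and 2 genotype contrasts used the 10 libraries concerned, and the interaction used all 20. The pseudocount for log2 normalized counts in the exact permutation tests was 0.5, and likeness used log2 CPM with a prior count of 2. The fit was tested on simulated data. Totals of 14083504 to 34611570 counts set the precision, and intervals cover the spread between libraries.

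The members and lists were chosen with earlier results of these data known. Named genes were the 6 members, EIF2AK4, up to 2 genes with the highest and 2 with the lowest change among those of each list that passed in a comparison, and the 3 genes most like each member. A few genes that this rule names are not reported here. Alternatives were DESeq2 1.42.0, other normalizations and filters, thinning of counts, 1 fit of all libraries, the replicate number as a block, and each library left out. Replicate numbers were not taken as pairs. No protein sequences were used here.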

Additional observations from a re-analysis of the deposited data

Results flagged for a closer look

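In the GCN2KO HDW group HEG1 stood at 1265 normalized read counts in replicate 5, while the next library read 863 and the others 822 to 854. Its gap to the nearest library was 0.908 of the range of the group, against a cutoff of 0.71. Of 24 groups of 5 libraries (6 genes in 4 groups) it was the only one past that cutoff. By chance about 1 in 20 such groups passes the cutoff. The WT HDW groups of OSBP2 (0.7096) and ANK3 (0.692) lay just below it. GCN2KO HDW replicate 5 was also the highest of its group in SH3KBP1, ANK3, METTL7A and SLC44A5. Without that library the HEG1 difference between GCN2KO and WT after HDW was −1.05, past the DE threshold, against −0.92 with it.

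OSBPL6, a relative of OSBP2, responded differently to HDW in the 2 genotypes by a test of the difference itself. The interaction had a log2FC of −1.32 (SE 0.13, edgeR adjusted p = 1.11e-07), with 435 against 167 normalized read counts in wounded and unwounded WT libraries and 570.0 against 546 in GCN2KO libraries. It was the only list gene of 68 tested past both the adjusted p and the absolute log2 threshold of 1 in that comparison, where 3.31% of all 16536 genes were.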

How the results depend on the processing

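Of 746 values recomputed under the alternatives, 724 were scored as kept. That means the same direction and side of the threshold, a move by less than the spread between libraries, or a count of genes within 1.5 times. The 746 include the WT responses and the interactions, on which the choice of the genes bears. With the replicate number as a block, the response of SLC44A5 in GCN2KO cells was −0.32 (edgeR adjusted p = 0.0619) and no longer passed, and 8 list genes in place of 16 passed for HDW in GCN2KO cells. The labels do not say whether same-numbered libraries were handled together. Their deviations correlated at −0.325 to 0.133 and above 0.1 in 1 of 20 pairs, which cannot settle it. The block moved no other call of a member.

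The response of ANK3 in GCN2KO cells passed with DESeq2 (−0.45, adjusted p = 0.0269), with no filter (−0.45, edgeR adjusted p = 0.00522), with all 20 libraries in 1 fit (−0.45, edgeR adjusted p = 0.00725), and, chosen after seeing the data, without GCN2KO unwounded replicate 1 and GCN2KO HDW replicate 5 (−0.47, edgeR adjusted p = 0.0165). OSBP2 passed between genotypes after HDW with library size alone (0.12, edgeR adjusted p = 0.0461). The causes were not tested.

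With each library left out in turn, the GCN2KO response ranged from −0.0107 to 0.0856 for SH3KBP1, turning its sign without replicate 5 of either group (−0.0106 for the unwounded one), from −0.59 to −0.32 for ANK3, from 0.0413 to 0.31 for HEG1 and from −0.39 to −0.27 for SLC44A5. The SLC44A5 call was lost without GCN2KO unwounded replicate 1, 3 or 5 and without GCN2KO HDW replicate 1, 2, 3 or 4. Between unwounded genotypes SLC44A5 ranged from −0.21 to −0.0905, and after HDW ANK3 ranged from 0.10 to 0.35 and the count of DE genes from 1 to 2. OSBP2 in unwounded WT libraries, at 52 to 99 reads, is the level most limited by depth.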
